A study of Mus musculus with 8 samples.

Results

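The genes described here encode membrane transporters of 3 families that move lipids, bile constituents, drugs and metabolites in and out of liver cells. They are the ATP-binding cassette (ABC) genes of families A to G, the organic anion transporting polypeptide genes (Slco) and the organic ion transporter genes (Slc22a). They were chosen by symbol from the genes listed for mouse liver, leaving out Abcb11, Abcg5, Abcg8 and 1 symbol marked -ps. No further gene was lost for an estimate without the status OK. The choice gave 87 of 48432 genes, of which 47 were Abc, 15 Slco and 25 Slc22a genes.

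The samples were 8 RNA-seq libraries of whole liver from wild-type C57BL/6 mice after 30 weeks of exposure, 2 in each of 4 groups. LL-PM2.5 mice had constant light and PM2.5 (fine particulate matter of the air), LD-PM2.5 mice a light/dark cycle and PM2.5, LL-FA mice constant light and filtered air, and LD-FA mice a light/dark cycle and filtered air. All groups shared strain and genotype, and no label gives sex, age at the start, time of day at collection, or whether the 2 replicates of a group are separate animals, so p-values may measure technical spread alone. The design asks how long exposure to polluted air and to constant light, alone and together, alter the liver.

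Hepatocytes stand between blood and bile. On the side facing the blood, SLCO and SLC22 proteins take up organic anions, cations, carnitine and drugs without using ATP, and some ABC exporters return conjugates to the blood. On the side facing the bile canaliculus, other ABC exporters pump phospholipid, conjugated bilirubin, urate and drugs into bile with energy from ATP. Further ABC proteins work inside the cell, in the membranes of peroxisomes, lysosomes and mitochondria, and the ABCE and ABCF proteins act on ribosomes and carry nothing across a membrane.

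Before the values, 4 promoters are shown: those of 3 Slco1 genes in 1 stretch of chromosome 6, where Slco1a4 had both LL-PM2.5 libraries above the rest and Slco1a1 and Slco1b2 did not, and that of Abca1, highest in both LD-PM2.5 libraries. Each window runs from 250 bases before to 50 bases after the gene's start, on the gene's own strand, and was taken from RefSeq on GRCm38.p6. Of the 87 genes, 70 had such an entry. Capitals mark matches, on either strand, to an E-box (CACGTG), a nuclear receptor core site (AGGTCA), a STAT site (TTCNNNGAA) or a D-box (TTATGNAA).
Slco1a4 (chr6:141856171-141856470, minus strand): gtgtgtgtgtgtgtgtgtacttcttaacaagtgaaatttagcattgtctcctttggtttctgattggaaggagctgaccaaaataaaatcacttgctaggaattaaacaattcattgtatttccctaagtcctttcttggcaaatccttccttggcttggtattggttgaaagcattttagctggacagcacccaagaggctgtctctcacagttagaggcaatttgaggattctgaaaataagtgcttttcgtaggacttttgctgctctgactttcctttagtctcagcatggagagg
Slco1a1 (chr6:141946913-141947212, minus strand): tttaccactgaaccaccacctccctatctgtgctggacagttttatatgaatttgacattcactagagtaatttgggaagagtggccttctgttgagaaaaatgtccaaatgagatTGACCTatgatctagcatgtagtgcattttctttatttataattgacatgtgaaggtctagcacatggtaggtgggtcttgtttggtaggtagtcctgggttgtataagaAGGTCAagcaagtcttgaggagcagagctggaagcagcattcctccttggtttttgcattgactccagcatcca
Slco1b2 (chr6:141629268-141629567, plus strand): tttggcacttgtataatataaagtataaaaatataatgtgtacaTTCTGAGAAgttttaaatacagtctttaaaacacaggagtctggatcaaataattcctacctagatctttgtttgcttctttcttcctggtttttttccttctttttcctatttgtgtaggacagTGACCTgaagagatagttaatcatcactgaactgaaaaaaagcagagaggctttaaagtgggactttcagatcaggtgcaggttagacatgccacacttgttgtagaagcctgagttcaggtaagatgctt
Abca1 (chr4:53159846-53160145, minus strand): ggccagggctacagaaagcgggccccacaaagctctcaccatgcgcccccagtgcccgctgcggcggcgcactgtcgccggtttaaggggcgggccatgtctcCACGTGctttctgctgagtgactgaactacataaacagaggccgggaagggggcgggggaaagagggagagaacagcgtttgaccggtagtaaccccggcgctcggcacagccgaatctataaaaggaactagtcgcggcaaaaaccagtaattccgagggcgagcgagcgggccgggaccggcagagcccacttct
The Slco1a4 window held none of the 4 letter strings, the Slco1a1 window held 2 core sites, the Slco1b2 window a core site and a STAT site, and the Abca1 window an E-box at position -147 from the gene's start. Among all 32851 promoter windows in that table, 7.15% held the E-box, 16.3% the core site, 8.3% the STAT site and 3.38% the D-box. Of the 32 tested transporter genes with an entry, 5 held the E-box (Abca1, Abca8a, Abca8b, Abcf1 and Slc22a4), 5 the core site, 3 the STAT site and 1 the D-box. No match in the printed windows overlaps another, and a match describes letters and not binding.

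Levels are given as the FPKM that the authors deposited, fragments scaled for transcript length and library depth, so levels can be set side by side between genes. Within a gene, deposited FPKM did not keep a fixed ratio to fragments over depth. Slco1b2 stood at 422 FPKM from 49805 fragments in LD-PM2.5 replicate 1 (27857685 in total). In LD-FA replicate 2 it stood at 253 FPKM from 49247 fragments (31696337 in total). FPKM and fragments scaled by depth alone can thus rank libraries differently, and the reason was not tested. Library totals ran from 22085740 to 31696337 fragments. The tissue label fitted its markers, since 5 hepatocyte genes summed to at least 15405 FPKM in every library and 4 kidney tubule genes to at most 0.0735 FPKM. Other tissues showed in some libraries. For 7 markers of pancreas the sum was 305 FPKM for LL-PM2.5 replicate 2 and 3121 for LD-FA replicate 1, and 17.8 to 113.9 for the rest. For 6 markers of skeletal muscle it was 489 FPKM for LL-FA replicate 1, 257 and 28.9 for both LD-FA libraries, and at most 1.34 for the rest.

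Of the 87 genes, 44 reached at least 1 FPKM in at least 2 libraries and were tested among 11316 genes. Over the 8 libraries, 4 of the 44 averaged above 100 FPKM (among them Slco1b2, Abcd3 and Slco1a1), 21 lay between 10 and 100, and 19 below 10. The highest library stood less than 1.5-fold above the lowest in 10 genes, between 1.5-fold and 3-fold in 31, and more than 3-fold in 3. Those 3 were Abcd2 at 12.4-fold, Slc22a7 at 8.38-fold and Slco1a4 at 4.50-fold.

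At an adjusted p of 0.05, the edgeR quasi-likelihood test called no transporter gene in any of 8 comparisons, and few genes of any kind. It called 0% of all tested genes in 7 comparisons and 0.0177% (2 genes) for PM2.5 averaged over both light regimes. DESeq2, a different count test, called 1 or 2 transporters (Abcd2, or Abcd2 and Slco1a4) in 5 of the 8 comparisons, and limma none. The counts below therefore use an unadjusted p under 0.05 or groups that do not overlap in FPKM, each beside its share among all tested genes. Fold changes are on the log2 scale, positive where the first group of a comparison was higher, with the standard error (SE) of the fit. In bulk liver RNA, fewer cells of a type and less RNA per cell cannot be told apart.

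**Figure D1:**
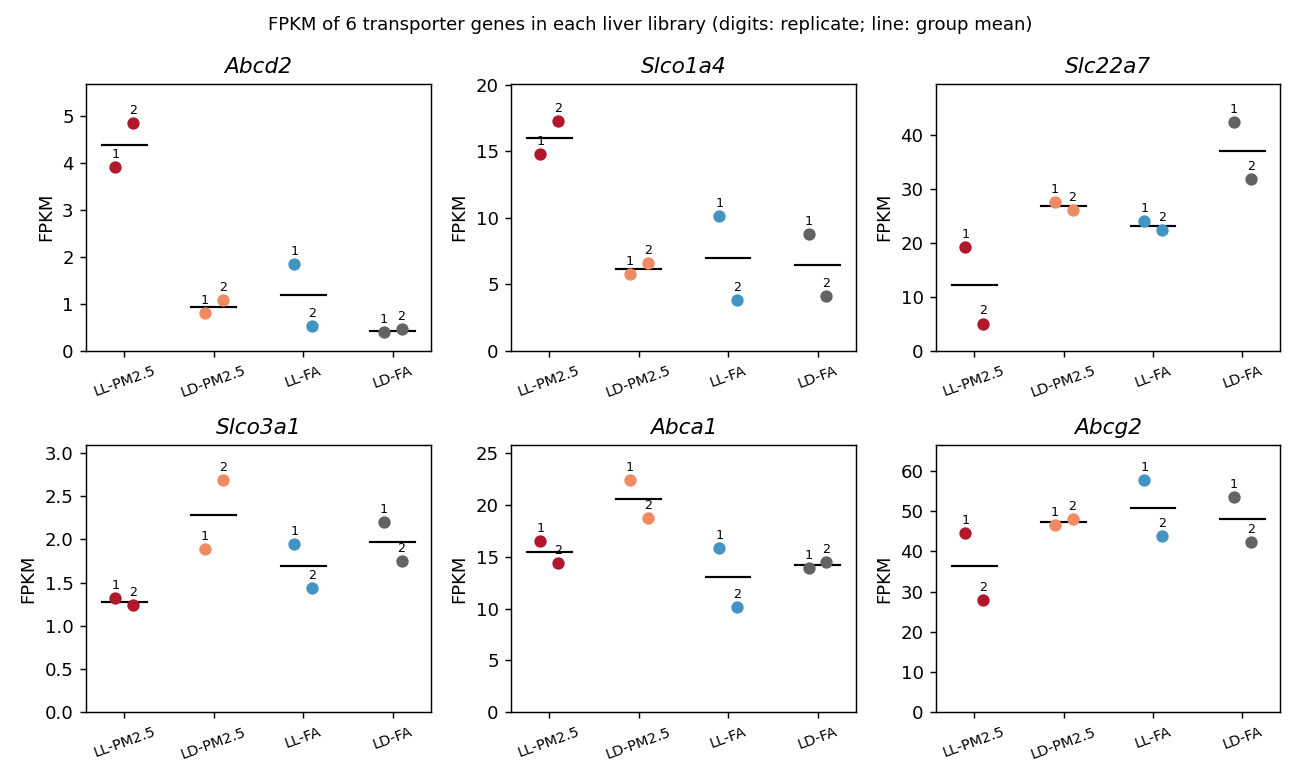
FPKM (vertical axes, from 0) of Abcd2, Slco1a4, Slc22a7, Slco3a1, Abca1 and Abcg2 in each library, with the 4 groups along the horizontal axes, a point per library numbered by replicate, and a line at each group mean. Both LL-PM2.5 libraries lie above all others for Abcd2 and Slco1a4 and below all others for Slc22a7 and Slco3a1, and both LD-PM2.5 libraries lie above all others for Abca1.

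Peroxisomes shorten very long and branched fatty acids, which enter through ABCD proteins. The widest difference among the transporters was that of Abcd2 (chromosome 15, 91145871 to 91191799, GRCm38/mm10), an importer of very-long-chain fatty acids. Abcd2 stood in LL-PM2.5 at 3.93 and 4.87 FPKM, in LD-PM2.5 at 0.815 and 1.07, in LL-FA at 1.85 and 0.539, and in LD-FA at 0.394 and 0.471. Both LL-PM2.5 libraries were above the other 6, both LD-FA libraries were the lowest, and the LL-FA libraries lay far apart. The fragments behind these values were 815 and 1200 for LL-PM2.5, 159 and 198 for LD-PM2.5, 328 and 109 for LL-FA, and 76 and 137 for LD-FA.

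Abcd2 averaged 4.40 ± 0.662 FPKM in LL-PM2.5 against 0.433 ± 0.0549 FPKM in LD-FA (SD, n = 2 each), a log2 fold change of 3.33 ± 0.51 (SE) or 10.1-fold, with an adjusted p of 0.214 in edgeR. Against LD-PM2.5 the difference was 2.30 ± 0.48 (adjusted p = 0.369) and against LL-FA 2.07 ± 0.48 (adjusted p = 0.989). Each exposure alone gave smaller values, 1.26 ± 0.49 for LL-FA against LD-FA and 1.04 ± 0.49 for LD-PM2.5 against LD-FA. These comparisons share libraries and do not add to each other as evidence. Abcd2 passed the threshold with other settings, among them DESeq2 for LL-PM2.5 against LD-FA (adjusted p = 5.25e-12), where the adjusted p ran from 9.82e-17 to 1 over all alternatives. The value for constant light alone came to 0.44 without LL-FA replicate 1. Mouse fat cells also express Abcd2, and the sum of 4 fat cell markers was in LL-PM2.5 at 5.32 and 4.70 FPKM, in LD-PM2.5 at 7.34 and 11.5, in LL-FA at 37.8 and 1.94, and in LD-FA at 6.04 and 8.74. Cfd made up most of this sum in every library, at 4.75 and 3.93 FPKM in LL-PM2.5 and 4.51 and 8.32 in LD-FA. Adipoq, the defining marker, stood in LL-PM2.5 at 0.336 and 0.351 FPKM and in LD-FA at 0.770 and 0.0720, where the groups overlapped. LL-FA replicate 1 had the highest sum, and the part of fat cell RNA in the Abcd2 value of any library was not tested.

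Abcd3, the abundant peroxisomal protein that imports branched-chain fatty acids and bile acid precursors, stood in LL-PM2.5 at 255 and 138 FPKM, in LD-PM2.5 at 208 and 174, in LL-FA at 252 and 215, and in LD-FA at 211 and 193. LL-PM2.5 replicate 2 was the lowest library for Abcd3, and no group stood clear of the other 6 libraries. Abcd4, which helps release cobalamin from lysosomes, ranged over 2.27 to 4.41 FPKM. For LL-PM2.5 against LD-FA the log2 fold changes were -0.10 ± 0.19 for Abcd3 and -0.15 ± 0.27 for Abcd4.

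Among the uptake carriers of the SLCO family, Slco1a4 (chromosome 6, 141805440 to 141856199), which takes up bile acids, steroid conjugates and cardiac glycosides, was highest in LL-PM2.5. It stood in LL-PM2.5 at 14.8 and 17.3 FPKM, in LD-PM2.5 at 5.80 and 6.57, in LL-FA at 10.1 and 3.84, and in LD-FA at 8.75 and 4.11. Both LL-PM2.5 libraries lay above the other 6, in which replicate 1 was above replicate 2 in both filtered-air groups. The fragments were 2098 and 3062 for LL-PM2.5, 761 and 817 for LD-PM2.5, 1208 and 561 for LL-FA, and 1174 and 820 for LD-FA. Slco1a4 averaged 16.0 ± 1.74 FPKM in LL-PM2.5 and 6.43 ± 3.28 FPKM in LD-FA (SD, n = 2 each).

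The log2 fold change of Slco1a4 in LL-PM2.5 was 1.40 ± 0.40 against LL-FA, 1.52 ± 0.40 against LD-PM2.5 and 1.41 ± 0.40 against LD-FA, with edgeR adjusted p-values of 0.989, 0.43 and 0.566. For either exposure alone it was near 0, -0.11 ± 0.40 for LD-PM2.5 against LD-FA and 0.01 ± 0.40 for LL-FA against LD-FA. The difference between the PM2.5 effect in constant light and that in the light/dark cycle, tested as an interaction, was 1.51 ± 0.56 (unadjusted p = 0.0295, adjusted p = 0.843 in edgeR). It was the one transporter with an unadjusted interaction p under 0.05, against 4.88% of all tested genes, and it did not pass the adjusted threshold.

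Slco1b2, the mouse counterpart of the human hepatic uptake carriers for bilirubin, bile acids and statins, had the highest mean of all transporters. It stood in LL-PM2.5 at 449 and 164 FPKM, in LD-PM2.5 at 422 and 254, in LL-FA at 355 and 258, and in LD-FA at 345 and 253. Slco1a1, a carrier of organic anions that is male-predominant in mouse liver, stood in LL-PM2.5 at 129.7 and 57.8 FPKM, in LD-PM2.5 at 125 and 105, in LL-FA at 121 and 76.2, and in LD-FA at 109.9 and 81.4. In both genes replicate 1 was above replicate 2 in every group in FPKM, and all groups overlapped in FPKM. In CPM after TMM scaling (fragments scaled by depth alone) the replicate order turned in 2 cases. These were Slco1b2 in LL-FA, at 1439 and 1595, and Slco1a1 in LD-PM2.5, at 538 and 610. The log2 fold changes of Slco1b2 and Slco1a1 in LL-PM2.5 against LD-FA were -0.11 ± 0.28 and -0.16 ± 0.20. The genes of the Slco1 cluster are similar in sequence, and shared reads could move between them.

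Slco2b1, a carrier of steroid sulfates and drugs, was among the steadiest and stood in LL-PM2.5 at 39.2 and 38.0 FPKM, in LD-PM2.5 at 44.4 and 45.1, in LL-FA at 39.5 and 44.4, and in LD-FA at 37.3 and 46.3. Slco2a1, the prostaglandin carrier, stood in LL-PM2.5 at 12.5 and 12.9 FPKM, in LD-PM2.5 at 14.3 and 13.4, in LL-FA at 14.5 and 14.8, and in LD-FA at 14.0 and 12.7, and both LL-FA libraries were above the other 6. Slco3a1, a widely expressed family member, stood in LL-PM2.5 at 1.32 and 1.24 FPKM, in LD-PM2.5 at 1.88 and 2.69, in LL-FA at 1.95 and 1.43, and in LD-FA at 2.20 and 1.74. Both LL-PM2.5 libraries were below the other 6 for Slco3a1, with a log2 fold change of -0.82 ± 0.27 against LD-PM2.5 (unadjusted p = 0.0169, adjusted p = 0.49 in edgeR) and -0.57 ± 0.27 against LD-FA.

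Of the SLC22 carriers, Slc22a7 (chromosome 17, 46432183 to 46438457), which takes up organic anions and nucleotides, varied most. It stood in LL-PM2.5 at 19.3 and 5.06 FPKM, in LD-PM2.5 at 27.6 and 26.1, in LL-FA at 24.0 and 22.4, and in LD-FA at 42.4 and 31.9. Both LL-PM2.5 libraries were below the other 6 and both LD-FA libraries above them, but the LL-PM2.5 libraries differed from each other by more than those of any other group. The fragments were 1229 and 273 for LL-PM2.5, 1646 and 1093 for LD-PM2.5, 1403 and 1022 for LL-FA, and 2344 and 2027 for LD-FA. Slc22a7 averaged 12.2 ± 10.1 FPKM in LL-PM2.5 and 37.1 ± 7.39 FPKM in LD-FA (SD, n = 2 each), a log2 fold change of -1.57 ± 0.53 (adjusted p = 0.684 in edgeR). Leaving out LL-PM2.5 replicate 2 gave -0.90. Leaving out LL-PM2.5 replicate 1 gave -2.87, with an adjusted p of 0.0468 in edgeR and a range of 3.08e-06 to 1 over the alternatives. That value sets 1 library, the lowest for this gene, against LD-FA and takes its spread from the other groups alone, so it has no replicate check. Against LD-FA, the value was -0.63 ± 0.52 in LL-FA and -0.48 ± 0.52 in LD-PM2.5.

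Slc22a5, the carnitine carrier, stood in LL-PM2.5 at 7.82 and 4.41 FPKM, in LD-PM2.5 at 8.63 and 9.13, in LL-FA at 7.01 and 6.87, and in LD-FA at 6.63 and 5.93. Both LD-PM2.5 libraries were the highest for Slc22a5, with 0.45 ± 0.22 against LD-FA, and LL-PM2.5 stood at -0.52 ± 0.22 against LD-PM2.5 (unadjusted p = 0.0454, adjusted p = 0.534 in edgeR).

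Slc22a28 and Slc22a30 belong to a mouse cluster of organic anion carriers on chromosome 19 whose close copies can share reads. Slc22a28 stood in LL-PM2.5 at 7.12 and 5.48 FPKM, in LD-PM2.5 at 7.20 and 3.60, in LL-FA at 7.32 and 6.64, and in LD-FA at 7.57 and 6.62. Slc22a30 stood in LL-PM2.5 at 48.3 and 26.4 FPKM, in LD-PM2.5 at 52.4 and 31.6, in LL-FA at 47.3 and 40.1, and in LD-FA at 51.7 and 38.7. For LD-PM2.5 against LD-FA the values were -0.55 ± 0.21 (unadjusted p = 0.0343, adjusted p = 0.443 in edgeR) and -0.23 ± 0.18. In both genes all groups overlapped in FPKM, and LD-PM2.5 replicate 2 was the lowest library for Slc22a28. Slc22a18, an imprinted gene, stood in LL-PM2.5 at 71.1 and 83.1 FPKM, in LD-PM2.5 at 67.1 and 80.6, in LL-FA at 64.5 and 84.3, and in LD-FA at 78.1 and 80.9. Slc22a15 stood in LL-PM2.5 at 1.62 and 1.13 FPKM, in LD-PM2.5 at 1.68 and 1.26, in LL-FA at 1.99 and 1.43, and in LD-FA at 1.41 and 2.16. In both of these genes all groups overlapped. Slc22a23 ranged over 10.9 to 17.8 FPKM, the ergothioneine carrier Slc22a4 over 0.671 to 1.73 and the monoamine carrier Slc22a3 over 0.967 to 2.52.

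Of the exporters into bile, Abcb4, which flips phosphatidylcholine into bile, stood in LL-PM2.5 at 56.5 and 29.5 FPKM, in LD-PM2.5 at 60.7 and 48.0, in LL-FA at 56.8 and 50.8, and in LD-FA at 53.9 and 46.6. Abcc2, the exporter of conjugated bilirubin, stood in LL-PM2.5 at 76.6 and 45.7 FPKM, in LD-PM2.5 at 56.3 and 54.7, in LL-FA at 60.8 and 50.1, and in LD-FA at 56.6 and 48.2. Abcg2, an exporter of urate, porphyrins and drugs, stood in LL-PM2.5 at 44.5 and 28.0 FPKM, in LD-PM2.5 at 46.5 and 48.1, in LL-FA at 57.8 and 43.7, and in LD-FA at 53.6 and 42.4. In LL-PM2.5 replicate 2 all 3 were the lowest of the 8 libraries, and no group stood clear of all others. Abcg2 had log2 fold changes of -0.48 ± 0.16 in LL-PM2.5 against LL-FA (unadjusted p = 0.0216, adjusted p = 0.989 in edgeR) and -0.46 ± 0.16 against LD-FA, while Abcb4 had -0.24 ± 0.22 and Abcc2 0.21 ± 0.24 against LD-FA.

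P-glycoprotein, a broad drug exporter, is encoded in mice by a pair of near-identical genes between which reads can be split. Abcb1a stood in LL-PM2.5 at 0.768 and 0.683 FPKM, in LD-PM2.5 at 0.506 and 0.900, in LL-FA at 0.755 and 0.338, and in LD-FA at 0.315 and 0.341. Abcb1b stood in LL-PM2.5 at 0.290 and 0.460 FPKM, in LD-PM2.5 at 0.806 and 0.495, in LL-FA at 1.49 and 0.374, and in LD-FA at 0.428 and 0.408. Neither was tested, since each reached 1 FPKM in fewer than 2 libraries.

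Of the exporters back into blood, Abcc3, which carries glucuronide conjugates, stood in LL-PM2.5 at 53.2 and 32.0 FPKM, in LD-PM2.5 at 44.4 and 43.2, in LL-FA at 55.3 and 43.9, and in LD-FA at 28.7 and 40.8. Its log2 fold change was 0.55 ± 0.27 in LL-FA against LD-FA, without overlap (unadjusted p = 0.0752, adjusted p = 1 in edgeR). Abcc6, whose loss leads to soft tissue calcification, stood in LL-PM2.5 at 21.9 and 23.0 FPKM, in LD-PM2.5 at 20.5 and 26.7, in LL-FA at 17.4 and 23.5, and in LD-FA at 18.7 and 23.9, and its groups overlapped. Abcc4, an exporter of bile acids and cyclic nucleotides, stood in LL-PM2.5 at 0.841 and 0.732 FPKM, in LD-PM2.5 at 0.536 and 0.373, in LL-FA at 0.834 and 0.615, and in LD-FA at 0.573 and 0.500 and was not tested.

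Abca1, which loads cholesterol onto nascent high-density lipoprotein, was highest in LD-PM2.5. It stood in LL-PM2.5 at 16.5 and 14.4 FPKM, in LD-PM2.5 at 22.4 and 18.7, in LL-FA at 15.9 and 10.1, and in LD-FA at 13.9 and 14.5. The log2 fold change in LD-PM2.5 against LD-FA was 0.48 ± 0.17 (unadjusted p = 0.0246, adjusted p = 0.438 in edgeR), and in LL-PM2.5 against LL-FA 0.27 ± 0.17. Averaged over both light regimes, the PM2.5 value was 0.38 ± 0.12 (unadjusted p = 0.0162, adjusted p = 0.43 in edgeR).

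Abcg1, a partner of Abca1 in cholesterol efflux that is strong in macrophages, stood in LL-PM2.5 at 1.40 and 2.01 FPKM, in LD-PM2.5 at 1.72 and 2.05, in LL-FA at 1.46 and 1.48, and in LD-FA at 1.60 and 1.86. The 6 macrophage markers summed to 97.1 to 149 FPKM over the libraries. Abcg3, a relative of Abcg2 found in mice and not in humans, stood in LL-PM2.5 at 1.05 and 1.23 FPKM, in LD-PM2.5 at 0.973 and 0.781, in LL-FA at 0.987 and 0.654, and in LD-FA at 0.920 and 0.909. Both LL-PM2.5 libraries were above the other 6 for Abcg3, but it passed the filter on low values only through LL-PM2.5, so its place is in part set by that filter.

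Abca5, Abca6, Abca8a and Abca8b lie in a row with Abca9 on chromosome 11 and are similar in sequence. Abca6 stood in LL-PM2.5 at 40.2 and 19.9 FPKM, in LD-PM2.5 at 38.6 and 34.6, in LL-FA at 37.3 and 22.7, and in LD-FA at 22.2 and 26.5. Abca8a stood in LL-PM2.5 at 16.9 and 9.48 FPKM, in LD-PM2.5 at 16.7 and 18.9, in LL-FA at 15.6 and 10.1, and in LD-FA at 12.8 and 11.6. In LD-PM2.5 against LD-FA both were without overlap, at 0.51 ± 0.27 and 0.50 ± 0.22. Abca7, a lipid transporter related to Abca1, stood in LL-PM2.5 at 0.876 and 0.763 FPKM, in LD-PM2.5 at 1.17 and 0.943, in LL-FA at 1.01 and 1.03, and in LD-FA at 0.894 and 0.915. Both LL-PM2.5 libraries were below the other 6 for Abca7 in FPKM but not in CPM after TMM scaling (fragments scaled by depth alone). Abca5 ranged over 0.558 to 1.15 FPKM, Abca8b over 3.97 to 9.74, Abca2 over 4.99 to 9.42 and Abca3 over 8.39 to 14.6. For Abca3 both LD-PM2.5 libraries were above the other 6 in FPKM, while in CPM LD-PM2.5 replicate 1, at 96.2, was below LL-PM2.5 replicate 1, at 97.6. Abca2 and Abca3 are lipid carriers of lysosomes and of related organelles.

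Of the mitochondrial transporters, Abcb6, linked to porphyrin transport, stood in LL-PM2.5 at 29.2 and 22.6 FPKM, in LD-PM2.5 at 26.3 and 33.6, in LL-FA at 25.8 and 31.1, and in LD-FA at 25.6 and 28.5. Abcb8, of the inner membrane, stood in LL-PM2.5 at 9.43 and 10.5 FPKM, in LD-PM2.5 at 9.94 and 8.21, in LL-FA at 9.60 and 10.5, and in LD-FA at 10.4 and 10.6. Abcb10, which acts in heme synthesis, stood in LL-PM2.5 at 13.9 and 11.5 FPKM, in LD-PM2.5 at 11.8 and 13.6, in LL-FA at 12.5 and 12.4, and in LD-FA at 10.7 and 12.2. The log2 fold changes of Abcb6, Abcb8 and Abcb10 over the 5 pairwise comparisons lay between -0.21 and 0.16. Of the ribosome factors, Abce1, which splits ribosomes after translation, stood in LL-PM2.5 at 26.5 and 19.1 FPKM, in LD-PM2.5 at 27.8 and 17.6, in LL-FA at 27.6 and 17.3, and in LD-FA at 24.2 and 19.7, with every replicate 1 above its replicate 2 in FPKM. In CPM this order of Abce1 turned in LL-PM2.5 (125.1 and 125.4) and in LD-FA (122.5 and 125.8). Abcf1 stood in LL-PM2.5 at 13.7 and 15.4 FPKM, in LD-PM2.5 at 15.0 and 19.0, in LL-FA at 14.8 and 16.1, and in LD-FA at 14.8 and 15.6, while Abcf2 ranged over 12.7 to 15.6 FPKM and Abcf3 over 13.0 to 15.7. Abcc9, the regulatory subunit of a potassium channel of vascular mural cells and muscle, ranged over 2.64 to 5.05 FPKM.

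**Figure D2:**
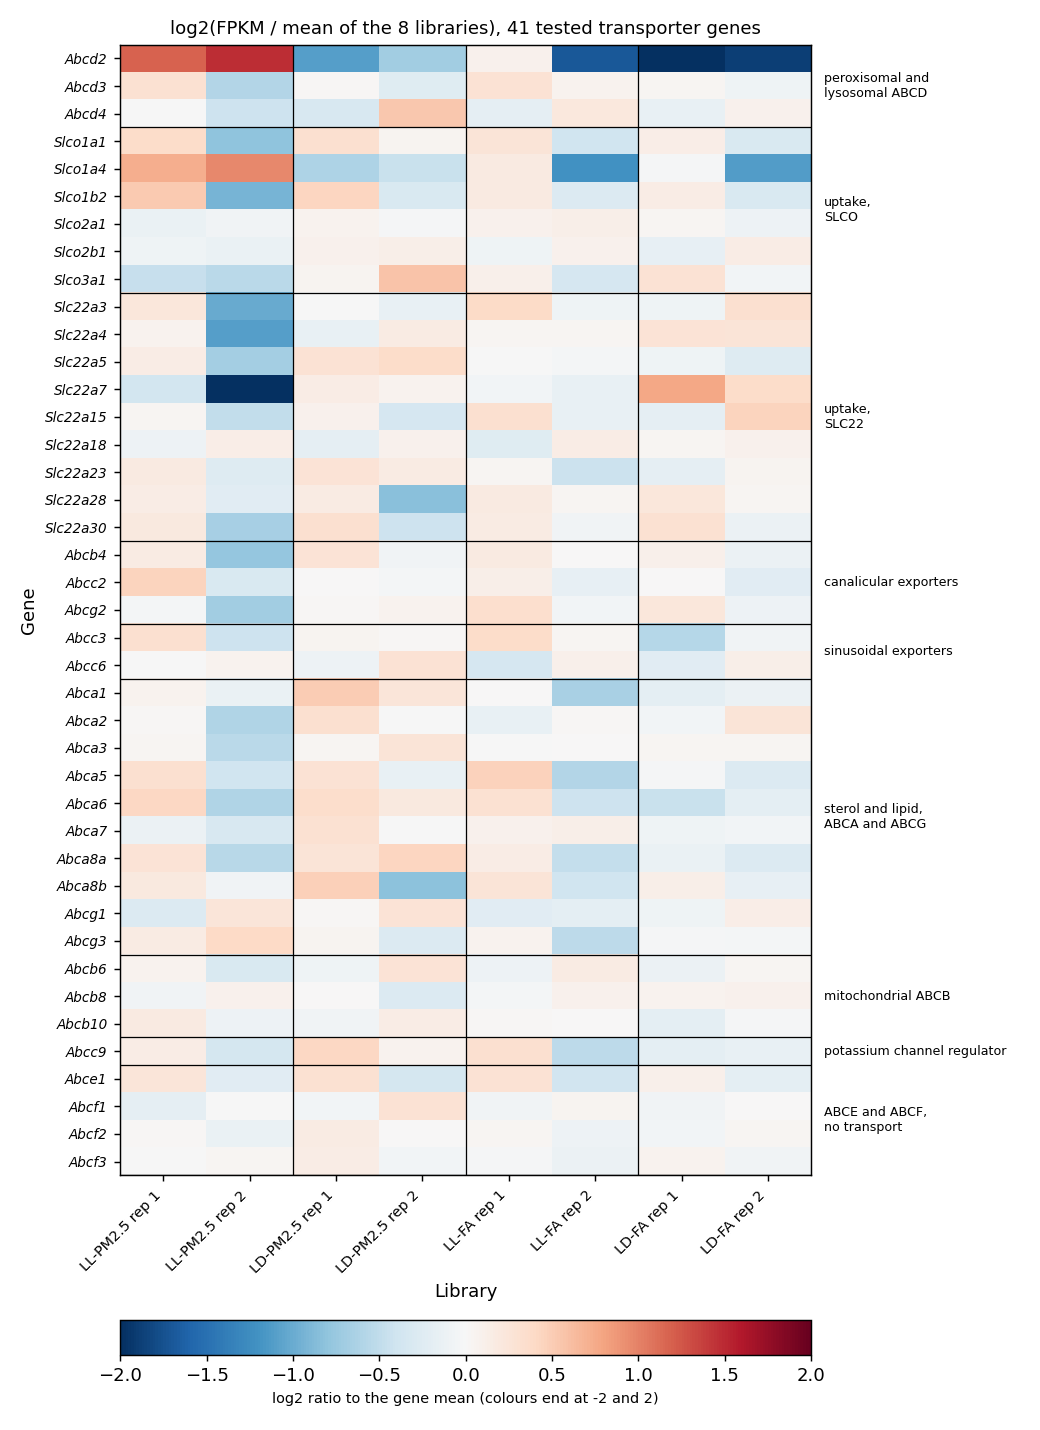
Each row is 1 of 41 tested transporter genes, grouped by role, and each column is 1 library. Colour gives the log2 ratio of FPKM to the gene's mean over the 8 libraries, red above and blue below, with colours ending at -2 and 2. Abcd2 and Slco1a4 are red in both LL-PM2.5 libraries, and LL-PM2.5 replicate 2 is blue for most rows.

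The 43 genes not tested were low or listed at 0. Of these, 10 were listed at 0 in every library, 19 stayed below 0.1 FPKM and 14 reached at least 0.1 FPKM in some library. Abcb1b alone reached 1 FPKM, at 1.49 in LL-FA replicate 1. The carriers known from kidney tubules were near 0, with at most 0.00806 FPKM for Slc22a6, 0.00969 for Slc22a8 and 0.0382 for Slc22a12. Abca9, of the chromosome 11 row, reached 0.803 FPKM and Slc22a27 0.895. By family, 8 of 16 Abca, 5 of 9 Abcb, 4 of 10 Abcc, 4 of 4 Abcd, 3 of 4 Abcg, 6 of 15 Slco and 10 of 25 Slc22a genes were tested.

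To see PM2.5 under a light/dark cycle, LD-PM2.5 was set against LD-FA. In LD-PM2.5 against LD-FA, 2 of the 44 tested genes had an unadjusted p under 0.05, beside 11% of all tested genes. They were Abca1 and Slc22a28. In FPKM 13 genes were without overlap, 29.5% of the 44 beside 43.4% of all tested genes. Of these, 10 were higher (22.7% beside 24.6%) and 3 lower (6.82% beside 18.7%). The higher ones included 5 of the 10 sterol and lipid transporters. The median log2 fold change was 0.08 over the 44 and -0.01 over all tested genes.

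Constant light in filtered air was read from LL-FA against LD-FA. In LL-FA against LD-FA, Abcd2 was the 1 gene with an unadjusted p under 0.05, beside 2.74% of all tested genes. In FPKM 12 genes were without overlap, 27.3% beside 21.9%, of which 7 were higher (15.9% beside 10.7%) and 5 lower (11.4% beside 11.3%). Medians were 0 over the 44 and 0 over all tested genes.

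PM2.5 under constant light was compared within LL. In LL-PM2.5 against LL-FA, 3 genes had an unadjusted p under 0.05 (Abcd2, Slco1a4 and Abcg2), beside 4.83% of all tested genes. In FPKM 9 genes were without overlap, 20.5% beside 21.2%, of which 4 were higher (9.09% beside 9.65%) and 5 lower (11.4% beside 11.6%). Among the 4 higher was Abcg3, which passed the filter on low values only through LL-PM2.5. Of the 44, 17 had a positive log2 fold change, and the median was -0.06 over the 44 and 0 over all tested genes.

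Constant light under PM2.5 gave more lower genes without overlap in FPKM than the other pairwise comparisons. In LL-PM2.5 against LD-PM2.5, 4 genes had an unadjusted p under 0.05 (Abcd2, Slco1a4, Slco3a1 and Slc22a5), beside 9.23% of all tested genes. In FPKM 14 genes were without overlap, 31.8% beside 30.7%, of which 3 were higher (6.82% beside 12.3%) and 11 lower (25% beside 18.3%). The 3 higher included Abcg3, which passed the filter on low values only through LL-PM2.5. Of the 44, 12 had a positive log2 fold change, and the median was -0.16 over the 44 and 0.01 over all tested genes. The 11 lower genes included 3 of 10 SLC22 carriers, 3 of 6 SLCO carriers and 3 of 10 sterol and lipid transporters. In CPM, 16 of the 44 were without overlap (36.4%, beside 39.3% of all tested genes), and Abca3, Abca7 and Slco2a1 overlapped.

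With both exposures against neither, LL-PM2.5 against LD-FA, 4 genes had an unadjusted p under 0.05 (Abcd2, Slco1a4, Slc22a7 and Abcg2), beside 6.71% of all tested genes. In FPKM 8 genes were without overlap, 18.2% beside 29.5%, of which 3 were higher (6.82% beside 12.2%) and 5 lower (11.4% beside 17.3%). Abcg3, again among the higher, passed the filter on low values only through LL-PM2.5. The median was -0.05 over the 44 and 0 over all tested genes. The 10 SLC22 carriers ran from -1.57 to 0.05 with a median of -0.35.

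Averaged over both light regimes, PM2.5 against filtered air gave 3 genes with an unadjusted p under 0.05 (Abcd2 at 1.55 ± 0.34, Abca1 and Abcg2 at -0.28 ± 0.12), beside 10% of all tested genes. None was without overlap between the 4 PM2.5 and the 4 filtered-air libraries, beside 3.4% of all tested genes (1.59% higher and 1.81% lower). Averaged over both airs, constant light against the light/dark cycle gave 4 genes with an unadjusted p under 0.05, beside 5.66%. They were Abcd2 at 1.78 ± 0.34, Slco1a4 at 0.76 ± 0.28, Slco3a1 at -0.49 ± 0.19 and Slc22a7 at -0.86 ± 0.37. Slc22a7 alone was without overlap, lower in all 4 constant-light libraries (2.27% of the 44), beside 2.24% of all tested genes (0.68% higher and 1.56% lower), and in CPM it overlapped. For the interaction, the median was -0.17 over the 44 and 0 over all tested genes, and 12 of the 44 values were positive.

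**Figure D3:**
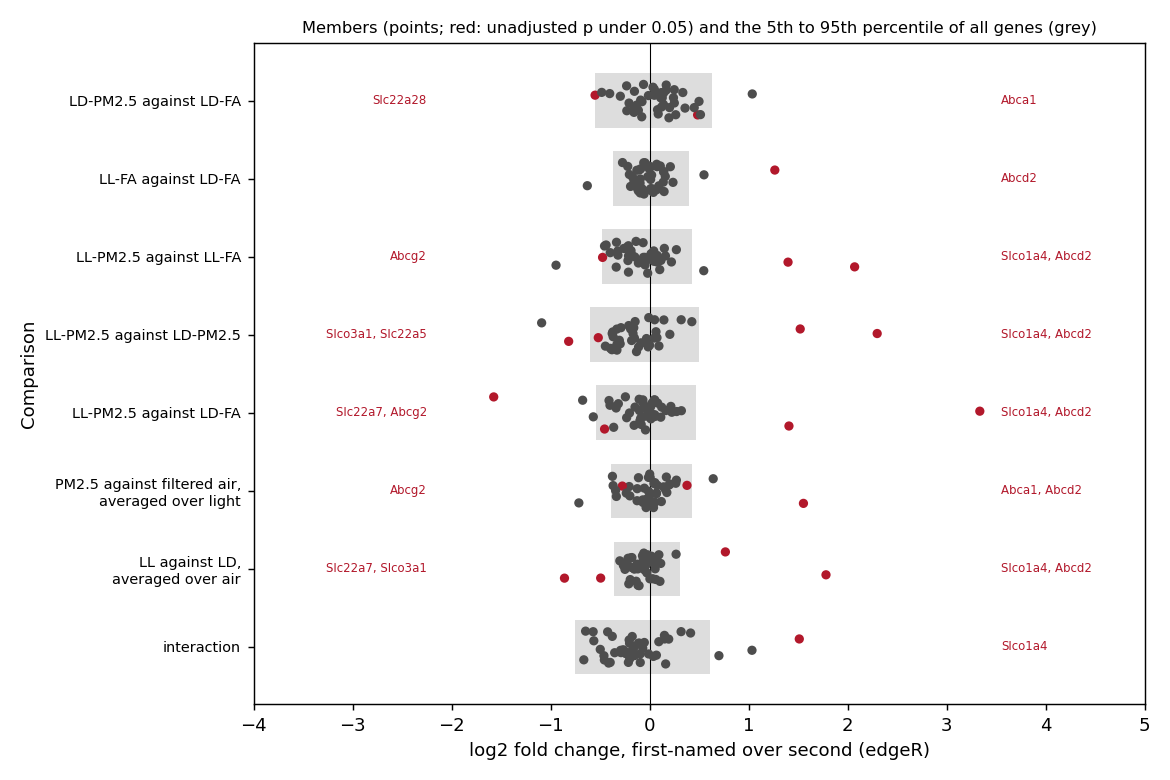
Log2 fold change (horizontal axis, edgeR) of the 44 tested transporter genes in each of 8 comparisons (rows), a point per gene, red where the unadjusted p was under 0.05 with the gene named at the side. Grey bars run from the 5th to the 95th percentile of all tested genes. Abcd2 at 3.33 in LL-PM2.5 against LD-FA lies farthest from 0, and most points lie inside the bars.

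Many of the lowest values lay in 1 library. LL-PM2.5 replicate 2 held the lowest FPKM of 23 of the 44 genes, or 52.3%, and of 24.7% of all tested genes. LL-PM2.5 replicate 1 was above replicate 2 in 34 of the 44 genes (77.3%), beside 64.4% of all tested genes. The same order held for 30 in LL-FA (68.2%, beside 57.1%), 27 in LD-PM2.5 (61.4%, beside 58.8%) and 22 in LD-FA (50%, beside 60.6%). In CPM it held for 29 in LL-PM2.5 (beside 49.9%), 29 in LL-FA (beside 50.9%), 22 in LD-PM2.5 (beside 50.8%) and 16 in LD-FA (beside 50.5%). In CPM, LL-PM2.5 replicate 2 was lowest for 19 of the 44 (43.2%), beside 17.3% of all tested genes. The highest FPKM lay in LD-PM2.5 replicate 1 for 12 of the 44 (27.3%, beside 18.2% of all tested genes) and in LD-PM2.5 replicate 2 for 9 (20.5%, beside 15.8%), and these were also the 2 libraries that most often held the highest value among all tested genes. LL-PM2.5 replicate 2 also held 305 FPKM of pancreas markers. LD-FA replicate 1, with 3121 FPKM of them, held the lowest FPKM of 4 of the 44 (9.09%, beside 7.86% of all tested genes). LD-PM2.5 replicate 1, with 113.9 FPKM of them, held the lowest FPKM of 0 of the 44 (beside 9.82% of all tested genes). The part of pancreas RNA in these values was not tested. Without LL-PM2.5 replicate 2, the median log2 fold change of the 44 genes was -0.01 in LL-PM2.5 against LD-PM2.5 and 0.02 for the interaction. Without LL-PM2.5 replicate 1 these medians were -0.37 and -0.34. Against the 6 other libraries, both LL-PM2.5 libraries were above in Abcd2, Abcg3 and Slco1a4 (6.82%, beside 2.22% of all tested genes) and below in Abca7, Slc22a7 and Slco3a1 (6.82%, beside 3.36%). Abcg3 passed the filter on low values only through LL-PM2.5, so its place in the first count is in part set by that filter. In CPM, Abcd2 and Slco1a4 remained above (beside 3.91% of all tested genes), Slc22a7 and Slco3a1 remained below and Abcg2 was also below (beside 4.11%), and Abcg3 and Abca7 were no longer separate. Both LD-PM2.5 libraries were above the other 6 in Abca1, Abca3 and Slc22a5 (6.82%, beside 7.97%) and below them in none (beside 4.08%). In CPM, Abca1 and Slc22a5 remained above and Slc22a23 was above in place of Abca3 (beside 9.47%), and Slc22a28 was below (beside 7.35%). Both LL-FA libraries were above in Slco2a1 (2.27%, beside 1.3%) and below in none (beside 1.5%), and both LD-FA libraries were above in Slc22a4 and Slc22a7 (4.55%, beside 2.8%) and below them in Abcd2 (2.27%, beside 2.13%). In CPM, Slco2a1 remained above in LL-FA (beside 2.19%) and Abcg3 was below there (beside 2.61%), and for LD-FA Slc22a4 and Slc22a7 remained above (beside 3.46%) and Abcd2 below (beside 3.15%).

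**Figure D4:**
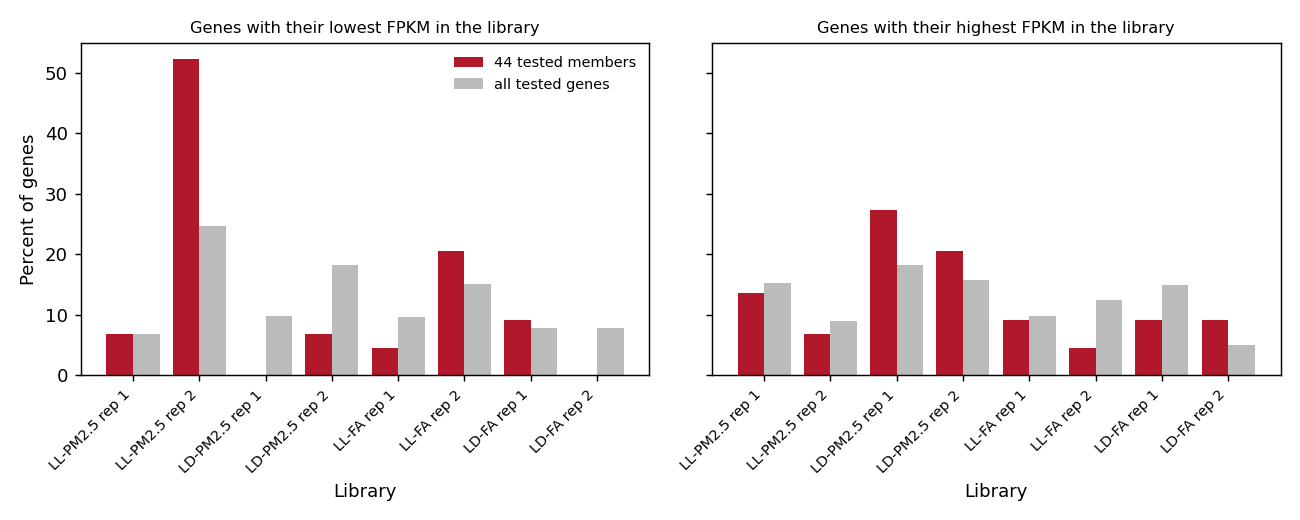
Percent of genes (vertical axis, from 0) with their lowest FPKM (left) or highest FPKM (right) in each library, for the 44 tested transporter genes (red) and all tested genes (grey). LL-PM2.5 replicate 2 stands out on the left, at 52.3% of the transporter genes against 24.7% of all tested genes.

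Lists of related genes were read beside the transporters. Of 15 regulators of liver transporters, nuclear receptors and other factors such as Nr1i2, Ppara and Nr1h4, all 15 were tested and edgeR and limma called none in any comparison, while DESeq2 called 1 in LD-PM2.5 against LD-FA. Among those with an unadjusted p under 0.05, Ppara, a sensor of fatty acids, was 1.39 ± 0.49 in LD-PM2.5 against LD-FA, and Nr1i2, the xenobiotic sensor PXR, was 0.46 ± 0.18 in LL-PM2.5 against LD-FA and 0.50 ± 0.18 in LL-FA against LD-FA. Of 19 other hepatobiliary transport genes 17 were tested and edgeR and limma called none, while DESeq2 called 1 to 3 of Abcg5, Abcg8 and Aqp8 in 5 of the 8 comparisons. In LL-PM2.5 against LD-FA, 4 of these 17 had an unadjusted p under 0.05, the sterol exporter pair Abcg5 and Abcg8 with positive values, and Aqp8, a water channel, and Slc16a1, a lactate carrier, with negative ones. The median of this list was -0.02, and 0 over all tested genes.

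Some of these carriers differ between male and female mouse liver, and the labels give no sex. In every library the male-predominant genes Cyp2d9 and Elovl3 were high, at 436 to 1216 and 123 to 537 FPKM, and the female-predominant genes Cyp2b13, Cyp3a41a, Cyp2a4 and Cyp2b9 were at or below 0.863 FPKM. No group was made from these values.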

How the data were processed

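Liver RNA was measured in 8 libraries, 2 per group. Per the submitters' processing notes, STAR, Cufflinks and Cuffdiff were used with the build mm10, with versions, options and annotation release not given in the sources used here. Units were named in the table. The authors deposited, per the file headers, estimated counts of fragments per gene and library and FPKM. Of the deposited estimated counts, zeros included, 99.0% lay within 0.01 of a whole number, and all were rounded. Symbols were found for 48051 of 48432 IDs, 40601 of them with the ID's version, and entries of 1 symbol were added, which left 48323 symbols. The 47 genes with a status other than OK were left out. Positions are from GENCODE vM21 on GRCm38/mm10.

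Testing took the genes that reached 1 FPKM in 2 or more libraries and used edgeR 4.0.16 in R 4.3.3 (quasi-likelihood test, TMM scaling, 4 group means, 4 residual degrees of freedom), two-sided, with Benjamini-Hochberg adjustment over 11316 genes. The SE is the absolute log2 fold change over the square root of F, with a median of 0.19 between groups of 2 libraries. Scripts were tested on simulated data. DESeq2 1.42.0, limma 3.58.1 on log2(FPKM + 1) and log2(FPKM + 0.1), other scaling, no filter, a replicate block and leaving out each library were alternatives. The genes described, the lists and the rules were chosen with earlier results of these data known. Genes named with values per library were, per comparison and direction, the 4 of smallest unadjusted p, those with a set role in liver, and the 2 of highest mean in each family. ATAC-seq was not analysed here, and some genes are counted in the totals but not reported by name.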

Additional observations from a re-analysis of the deposited data

How the results depend on the processing

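Among all tested genes, the number called by other settings is given in the order LD-PM2.5 against LD-FA, LL-FA against LD-FA, LL-PM2.5 against LL-FA, LL-PM2.5 against LD-PM2.5, LL-PM2.5 against LD-FA, PM2.5 average, light average and interaction. DESeq2 called 151, 43, 58, 141, 96, 161, 92 and 33 genes, and no filter on FPKM, which tests 23030 genes, called 647, 201, 476, 358, 486, 696, 291 and 239. Limma on log2(FPKM + 1) called 1 gene in each of the 3 comparisons of LL-PM2.5 with another group, 1 in the light average and 2 in the interaction, and with a pseudocount of 0.1 it called 1 in the PM2.5 average. Leaving out 1 library at a time gave 0 to 36 genes in LD-PM2.5 against LD-FA, 0 to 10, 0 to 4 and 0 to 7 in LL-PM2.5 against LL-FA, LD-PM2.5 and LD-FA, 0 to 17 in the PM2.5 average and 0 to 1 in the light average. Without the 2 libraries richest in muscle transcripts, chosen after seeing the data, the counts were 1 in LD-PM2.5 against LD-FA and 0 in the PM2.5 average, and without the 2 richest in pancreas transcripts 0 in the PM2.5 average and 1 in the light average. Of the transporters, DESeq2 called 2 in each of those 3 comparisons (Abcd2 and Slco1a4) and 1 in each average (Abcd2), and no filter called 2, 1, 4, 3, 4, 4, 3 and 2. Leaving out LL-PM2.5 replicate 1 called 1 (Slc22a7) in LL-PM2.5 against LD-FA, so that count ran from 0 to 1. With 1 library left out, the lone library of its group is assumed to vary like the other groups. In CPM in place of FPKM, added after seeing the data, 21 of the 44 transporters were without overlap in LD-PM2.5 against LD-FA (47.7%, beside 49.4% of all tested genes). The number was 15 in LL-FA against LD-FA (34.1%, beside 30.2%) and 14 in LL-PM2.5 against LL-FA (31.8%, beside 30%). It was 16 in LL-PM2.5 against LD-PM2.5 (36.4%, beside 39.3%) and 11 in LL-PM2.5 against LD-FA (25%, beside 36.3%). For the averages it was 1 for PM2.5 (2.27%, beside 5.68%) and 0 for light (beside 3.18%). The causes of these differences were not tested. For the named genes, 996 of 1024 alternative values kept their direction and side of the threshold, 26 passed it newly, and 2 turned sign. Those 2 were Abca1 in LL-FA against LD-FA, at 0.070 without LL-FA replicate 2 and -0.40 to 0.070 over the libraries left out, and Abcc3 in LL-PM2.5 against LD-FA, at -0.068 without LL-PM2.5 replicate 1 and -0.068 to 0.63 over the libraries left out.

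Deviations of same-numbered libraries correlated at -0.365 to 0.325 across genes. No label says what the numbers mark, so whether they pair the samples cannot be told from these values. With the replicate block, edgeR called 0 transporters in each comparison, and 2 genes in the PM2.5 average and 0 elsewhere. With 2 libraries per group, 4 residual degrees of freedom and 22085740 to 31696337 fragments, differences near the median SE of 0.19 could not be told from spread. Far larger ones also missed the adjusted threshold, such as Abcd2 at 3.33 ± 0.51 in LL-PM2.5 against LD-FA (adjusted p = 0.214 in edgeR).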
